A study of Mus musculus with 6 samples.

Results

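Macrophages recognise sugars on microbes and on damaged host cells with C-type lectin receptors, membrane proteins whose extracellular part folds into a carbohydrate-binding domain. The 7 genes described here are Mrc1, Mgl2, Clec10a, Clec7a, Clec4d, Clec4e and Clec4n, out of 27361 gene names on a mouse expression array. They were chosen by name with earlier results of these data known. Each was measured by 1 probe that was well above background on all 6 arrays. All 7 were therefore among the 19038 genes tested. Mrc1 (the mannose receptor) takes up mannose-bearing glycoproteins, and the macrophage galactose-type lectins encoded by Mgl2 and Clec10a bind galactose and N-acetylgalactosamine. Clec7a encodes Dectin-1, which binds fungal beta-glucan and carries its own signalling motif. Clec4n (Dectin-2), Clec4d (MCL) and Clec4e (Mincle) signal through the adaptor Fcer1g. Dectin-2 binds fungal mannans and Mincle binds mycobacterial cord factor. Both signalling routes lead to the kinase Syk and the adaptor Card9. Mrc1, Mgl2 and Clec10a are widely used as markers of macrophages exposed to interleukin 4, and Mincle is known as a gene induced by inflammatory stimuli.

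The cells were C57BL/6 bone marrow-derived macrophages, grown for 7 days in 10% L929-conditioned medium, which supplies macrophage colony-stimulating factor. FoxO1 KO cells (LysMcre FoxO1 Fl/Fl) carried floxed Foxo1 together with a Cre recombinase expressed from the lysozyme M gene, and WT cells (FoxO1 Fl/Fl) carried the same floxed alleles without Cre. Since the KO group alone carries Cre, loss of Foxo1 and presence of Cre cannot be told apart. In each genotype, M2 cells received 10 ng/ml interleukin 4 (IL-4) and 10 ng/ml interleukin 13 (IL-13) for 24 h, M1 cells received 100 ng/ml lipopolysaccharide (LPS) and 20 ng/ml interferon-gamma for 24 h, and M0 cells received neither. Each genotype and state had 1 array, 6 in all, and the ages of the animals are not given in the sources used here. Nothing in the labels says that the RNA samples came from separate animals, so the p-values below measure only the spread between these arrays. With the genotype as a term, the 2 arrays of a state served as its samples. In bulk RNA, fewer cells of a type and less RNA per cell cannot be told apart.

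Levels are log2 signal minus the log2 of the array's 75th percentile, so 0 marks that percentile and 1 unit is 2-fold. Because probes differ in brightness, levels are compared between arrays for 1 gene and not between genes. Mgl2 and Clec10a lie next to each other on chromosome 11 and encode closely related receptors, so their 60-base probes are shown, with the longest run they share, 8 bases, in capitals. The files place them at chr11:69950532-69950591 (Mgl2) and chr11:69984232-69984291 (Clec10a) on mm9, with no strand stated.
Mgl2 probe: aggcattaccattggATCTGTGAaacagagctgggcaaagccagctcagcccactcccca
Clec10a probe: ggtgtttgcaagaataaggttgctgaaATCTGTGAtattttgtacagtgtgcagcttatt
Across all pairs of the 7 probes the longest shared run was 5 to 8 bases. The other probes lie on chromosome 2 (Mrc1, chr2:14253304-14253363) and on chromosome 6. Those on chromosome 6 are at chr6:129411739-129411798 (Clec7a), chr6:123224788-123224847 (Clec4d), chr6:123232878-123232937 (Clec4e) and chr6:123194580-123196486 (Clec4n). The listed span of the Clec4n probe, 1907 bases, is longer than its 60 bases. Whether the probes fall in coding or untranslated exon sequence was not analysed here.

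RefSeq promoters (GRCm38.p6, 250 bases before to 50 bases after the start site) matched 5 of the 7 genes by symbol. Of these, 4 are shown because the genes behind them moved in different directions between the polarized states: Mgl2 and Clec7a were higher in M2 than in M1 cells, and Clec4e and Clec4d were lower. Capitals mark matches on either strand to any of 8 short motifs: STAT6 (TTCNNNNGAA), STAT (TTCNNNGAA), NF-kB (GGGNNNNNCC), IRF (GAAANNGAAA), C/EBP (TTGCNNAA), AP-1 (TGANTCA), PU.1 (GAGGAA) and FoxO (GTAAACA).
Mgl2 promoter, chr11:70130107-70130406, plus strand: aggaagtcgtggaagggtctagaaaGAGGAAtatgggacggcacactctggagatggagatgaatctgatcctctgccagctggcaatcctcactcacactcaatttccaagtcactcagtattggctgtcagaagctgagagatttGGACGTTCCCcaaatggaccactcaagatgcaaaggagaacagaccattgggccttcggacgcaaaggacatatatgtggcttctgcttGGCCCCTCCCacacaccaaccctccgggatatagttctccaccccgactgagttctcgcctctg
Clec7a promoter, chr6:129472730-129473029, minus strand: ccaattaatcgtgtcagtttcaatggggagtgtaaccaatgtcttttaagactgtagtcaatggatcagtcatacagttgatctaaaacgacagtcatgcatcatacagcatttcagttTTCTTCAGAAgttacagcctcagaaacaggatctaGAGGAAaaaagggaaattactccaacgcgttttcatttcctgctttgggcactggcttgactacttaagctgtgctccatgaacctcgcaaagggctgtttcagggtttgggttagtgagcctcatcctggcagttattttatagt
Clec4e promoter, chr6:123289822-123290121, minus strand: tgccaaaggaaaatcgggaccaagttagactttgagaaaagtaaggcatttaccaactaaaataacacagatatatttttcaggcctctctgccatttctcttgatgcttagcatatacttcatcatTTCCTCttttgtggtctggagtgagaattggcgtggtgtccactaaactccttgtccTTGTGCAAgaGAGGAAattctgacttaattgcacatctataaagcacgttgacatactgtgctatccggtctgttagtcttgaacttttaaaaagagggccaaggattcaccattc
Clec4d promoter, chr6:123261857-123262156, plus strand: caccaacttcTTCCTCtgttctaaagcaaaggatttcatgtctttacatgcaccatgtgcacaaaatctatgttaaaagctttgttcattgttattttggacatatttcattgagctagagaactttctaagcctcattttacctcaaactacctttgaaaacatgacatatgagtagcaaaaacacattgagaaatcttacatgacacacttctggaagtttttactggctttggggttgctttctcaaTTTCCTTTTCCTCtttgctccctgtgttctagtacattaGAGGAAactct
The PU.1 letters were present in all 5 promoters, Mrc1 included, and in 28.3% of the 32851 promoters of the same length. Of the 5, only Clec7a held the STAT6 letters, beginning 131 bases before the start site, against 6.95% of all promoters. The C/EBP letters stood 66 bases before the start site of Clec4e and in no other of the 5, against 10.8% of all promoters. In Clec4d the IRF letters (3.44% of all promoters) overlapped a PU.1 match. The NF-kB letters, found in 50.8% of all promoters, occurred in Mgl2 and Mrc1. None of the 5 held the FoxO (3.65%), AP-1 (7.81%) or STAT (8.3%) letters. A match describes letters in this window and no more.

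All 10 macrophage markers examined were well above background on all 6 arrays. Foxo1 stood at -1.15, -1.82 and -1.42 on the KO M2, M1 and M0 arrays, below 1.5, 0.96 and 1.5 on the WT M2, M1 and M0 arrays. Nos2 was at least 694.4-fold higher in M1 than in M0 cells. It was well above background on the 2 M1 arrays alone, so it met the filter only through the state where it was high, and no p is given. Arg1 was at 5.65 and 6.23 on the KO and WT M2 arrays and at -6.02 and -3.81 on the KO and WT M0 arrays. The WT M0 array stood apart by hepatocyte genes: 18 of the 18 hepatocyte markers on the array were well above background there, against 7 to 15 on the others. Alb stood at 3.48 and Serpina1d at 3.55 on that array. On the other 5 arrays Alb lay between -8.37 and -2.37 and Serpina1d between -5.66 and -0.75, each highest on the KO M1 array. That array had 15 of the 18 well above background, against 7 on the WT M1 array, where Alb stood at -7.72 and Serpina1d at -5.66. The median KO minus WT difference of the hepatocyte markers in M1 cells was 2.18. Clec4f, a lectin receptor of liver macrophages, was well above background only on the WT M0 array. It belongs to a list of 10 liver macrophage and liver endothelial markers. Of these, 10 were well above background on the WT M0 array and 7 on each other array. Their summed level did not set the WT M0 array apart. It was 5.74 there, 6.45 on the KO M0 array, and between 5.24 (WT M2) and 7.6 (KO M1) over the others. Because of the hepatocyte genes on the WT M0 array, the receptors' differences from the M0 state are also given without that array. The KO M1 array enters every M1 comparison below, and the part of its hepatocyte signal in those values was not tested.

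All 7 receptors differed between the 2 polarized states. The receptors and gene lists were chosen with earlier results of these data known. Shares of all genes, here and below, are therefore background to the counts and no independent test of them. Mrc1, Mgl2, Clec10a and Clec7a were higher in M2 than in M1 cells (4 of 7, where 13.8% of all genes tested were higher), and Clec4d, Clec4e and Clec4n were lower (3 of 7, where 11.6% were lower), each at a limma adjusted p at or under 0.05 over 19038 genes. Relative to M0, Mrc1, Clec10a and Clec7a fell in M1 cells (3 of 7, against 14.0% of all genes) and Clec4e rose (1 of 7, against 11.6%). In M2 cells relative to M0, 0 of the 7 passed in either direction by limma. Few genes of the array did: 0.0630% were higher and 0.0210% lower, while 3642 genes had an unadjusted p under 0.05. The median difference of the 7 receptors was 2.70 for M2 minus M1, 0.85 for M2 minus M0 and -1.07 for M1 minus M0, beside 0.18, 0.08 and 0.03 over all genes tested.

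These calls rest on few arrays. Leaving out any 1 of the M0 or M1 arrays left 0 of the 7 and 0 of all genes called for M1 minus M0, and leaving out either M1 array left 0 of the 7 and 0 of all genes called for M2 minus M1. Arrays were on 2 slides: WT M1 and WT M0 shared one, and the other 4 arrays shared the other. So M1 minus M0 was measured within a slide in both genotypes, while comparisons with M2 lay within a slide in KO cells alone. Without the KO M1 array, M1 minus M0 was -5.99 for Mrc1, -5.54 for Clec10a, -1.74 for Clec7a and 5.08 for Clec4e.

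**Figure D1:**
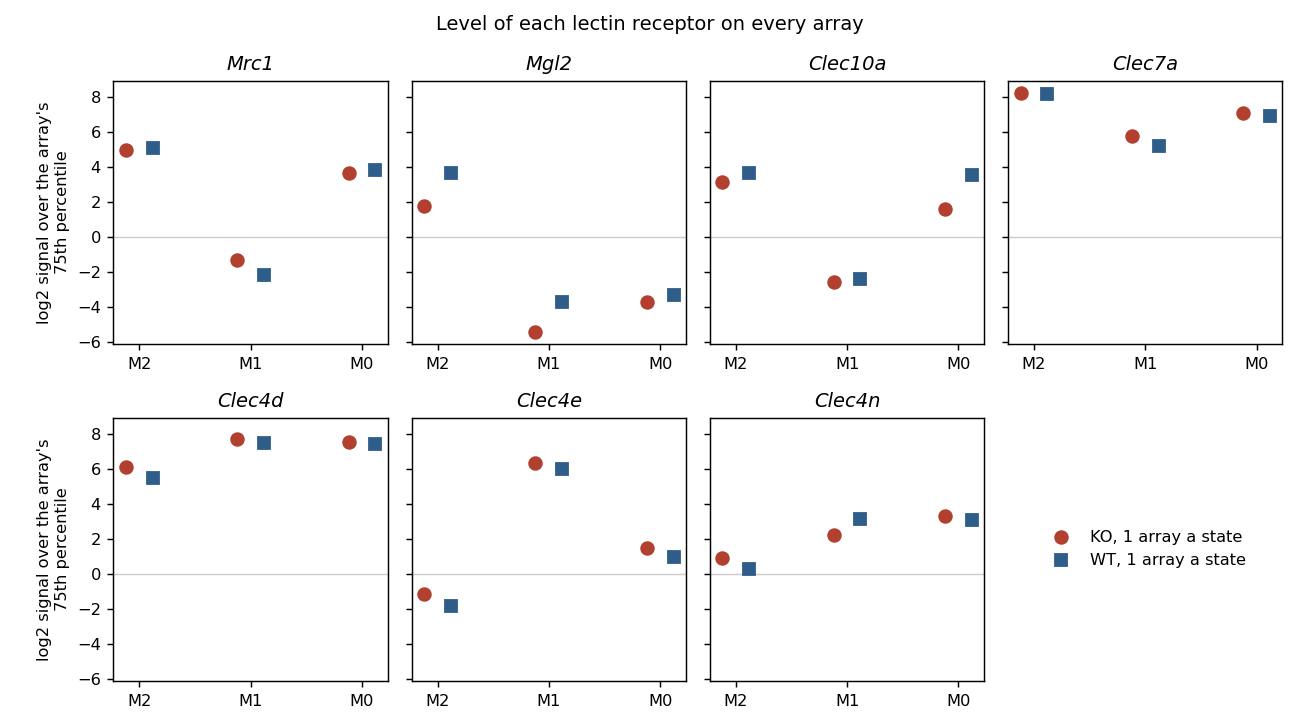
Log2 level of each receptor (vertical axis, log2 signal over the array's 75th percentile) on the 6 arrays, by state (horizontal axis), with KO as circles and WT as squares; each point is 1 array and there are no error bars. Mrc1, Clec10a and Clec7a were lowest on the M1 arrays, Mgl2 was highest on the M2 arrays, and Clec4e was highest on the M1 arrays and lowest on the M2 arrays.

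Among the sugar-uptake receptors, Mrc1 stood at 4.99 in KO and 5.08 in WT M2 cells, at -1.31 in KO and -2.16 in WT M1 cells, and at 3.64 in KO and 3.86 in WT M0 cells. The M1 arrays of both genotypes lay far below all others, and the M2 arrays lay above the M0 arrays without overlap. Its level fell by 5.49 on the log2 scale in M1 relative to M0 cells (SE 0.33, limma adjusted p = 0.00709), a 44.8-fold difference that ranked 29th among the decreases of 19038 genes. Between M2 and M1 cells the difference was 6.77 (SE 0.33, adjusted p = 0.00546), or 109-fold. The M2 minus M0 difference of 1.28 (SE 0.33) did not pass (adjusted p = 0.184). Within KO cells, where all 3 arrays shared a slide, M1 minus M0 was -4.95 and M2 minus M0 was 1.35. In WT cells these values were -6.03 and 1.22. The fitted differences without the WT M0 array were -5.18 for M1 minus M0 (adjusted p = 0.0975) and 1.59 for M2 minus M0 (adjusted p = 0.718).

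Clec10a had the same order of states as Mrc1. It stood at 3.14 in KO and 3.68 in WT M2 cells, at -2.55 in KO and -2.37 in WT M1 cells, and at 1.60 in KO and 3.52 in WT M0 cells. Both M1 arrays were below all others, while the M2 and M0 ranges overlapped because the WT M0 value lay between those of the M2 arrays. In M1 cells it fell by 5.02 relative to M0 cells (SE 0.49, limma adjusted p = 0.0111), or 32.4-fold, and it was 58.3-fold higher in M2 than in M1 cells (log2 difference 5.87, SE 0.49, adjusted p = 0.00793). M2 minus M0 was 0.85 (SE 0.49, adjusted p = 0.396), made of 1.54 in KO cells and 0.15 in WT cells. Without the WT M0 array, M2 minus M0 was 1.63 (adjusted p = 0.632) and M1 minus M0 was -4.23 (adjusted p = 0.0975).

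Mgl2 was dim outside the M2 state. Its levels were 1.76 in KO and 3.65 in WT M2 cells, -5.43 in KO and -3.70 in WT M1 cells, and -3.70 in KO and -3.30 in WT M0 cells. Both M2 arrays stood above all others by more than 5 log2 units, and the M1 and M0 arrays lay at the dim end, between -5.43 and -3.30. In signal units the M2 arrays read 2117.6 (KO) and 6921 (WT), the M1 arrays 13.5 (KO) and 45.3 (WT), and the M0 arrays 46.3 (KO) and 54.1 (WT). The M2 minus M0 difference was 6.20 (SE 0.44), or 73.5-fold, and ranked 17th among the increases of all genes, yet its limma adjusted p of 0.0585 missed the threshold. Alternative processings gave an adjusted p of at most 0.05 for it 5 times, with an adjusted p of 0.0470 after quantile normalization and 0.00275 with a variance trend on intensity. It missed with normexp background correction (4.51, adjusted p = 0.210), without a filter on dim probes (adjusted p = 0.102) and when slide was a block (5.79, adjusted p = 0.198). Against M1, the M2 difference was 7.27 (SE 0.44, adjusted p = 0.00598), or 154-fold. M1 minus M0 was -1.07 (SE 0.44, adjusted p = 0.161). Without the WT M0 array, M2 minus M0 was 5.49 (adjusted p = 0.592) and M1 minus M0 was -1.78 (adjusted p = 0.118). In KO cells alone M2 minus M0 was 5.45 and in WT cells 6.95.

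**Figure D2:**
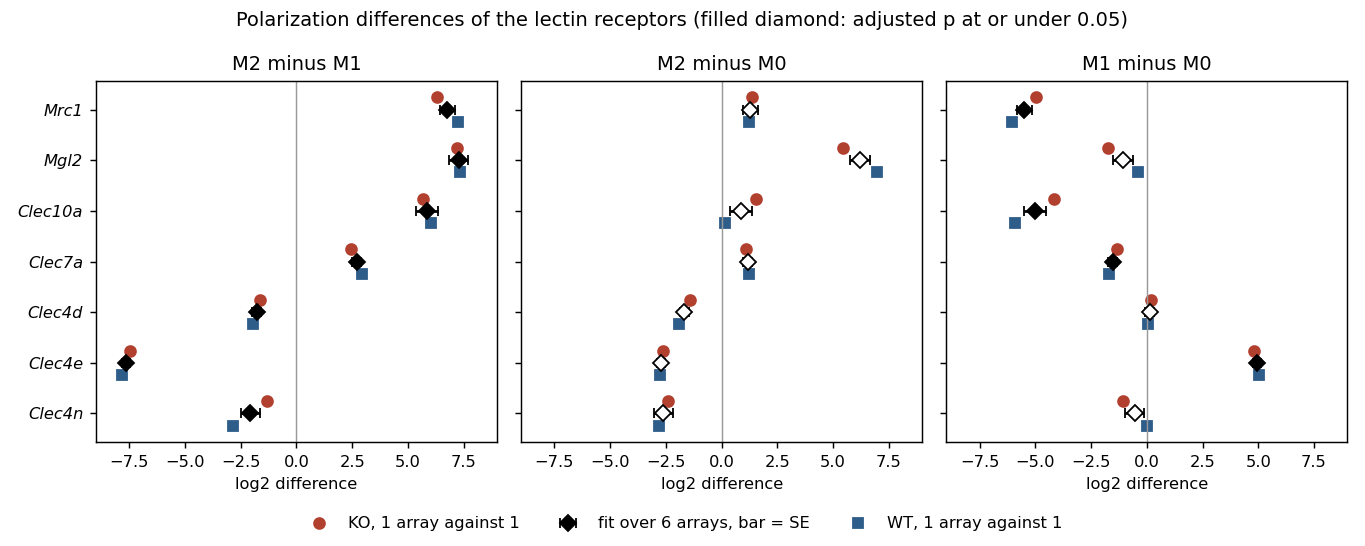
Log2 differences of each receptor (horizontal axis) for M2 minus M1, M2 minus M0 and M1 minus M0; diamonds are the fit over 6 arrays with bars of 1 SE, filled where the limma adjusted p was at or under 0.05, circles are KO and squares are WT, each 1 array against 1. Diamonds are filled for all 7 receptors in M2 minus M1, for 0 in M2 minus M0 and for 4 in M1 minus M0.

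Dectin-1, encoded by Clec7a, fell in M1 cells and was higher in M2 than in M1 cells. Clec7a stood at 8.23 in KO and 8.16 in WT M2 cells, at 5.77 in KO and 5.22 in WT M1 cells, and at 7.11 in KO and 6.93 in WT M0 cells. The 3 states did not overlap, in the order M2, M0, M1. In M1 cells it fell by 1.53 relative to M0 cells (SE 0.20, limma adjusted p = 0.0165), or 2.88-fold, and M2 exceeded M1 by 2.70 (SE 0.20, adjusted p = 0.00685), or 6.50-fold. M2 minus M0 was 1.17 (SE 0.20, adjusted p = 0.115), with 1.11 in KO and 1.23 in WT cells. With normexp background correction M1 minus M0 was -1.35 and the adjusted p 0.0679. M1 minus M0 was -1.47 without the WT M0 array (adjusted p = 0.158), and M2 minus M0 was 1.23 (adjusted p = 0.711).

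Mincle was the receptor gene that rose in M1 cells. Clec4e levels were -1.14 in KO and -1.82 in WT M2 cells, 6.32 in KO and 6.00 in WT M1 cells, and 1.49 in KO and 0.96 in WT M0 cells. The 3 states were separated by more than 2 log2 units, in the order M1, M0, M2. It rose by 4.93 in M1 relative to M0 cells (SE 0.18, limma adjusted p = 0.00681), or 30.6-fold, and was 200-fold lower in M2 than in M1 cells (log2 difference -7.64, SE 0.18, adjusted p = 0.0044), the lowest adjusted p in that comparison over all genes. M2 minus M0 was -2.71 (SE 0.18, adjusted p = 0.0585), with -2.63 in KO and -2.78 in WT cells. Without the WT M0 array, M1 minus M0 was 4.92 and M2 minus M0 was -2.72, with adjusted p of 0.0975 and 0.592.

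Clec4d and Clec4n, the other adaptor-dependent receptors, did not pass in M1 relative to M0 cells and were lower in M2 than in M1 cells. Clec4d stood at 6.10 in KO and 5.48 in WT M2 cells, at 7.72 in KO and 7.45 in WT M1 cells, and at 7.53 in KO and 7.39 in WT M0 cells. The M1 and M0 ranges overlapped, and both M2 arrays lay below them. M1 minus M0 was 0.13 (SE 0.19, limma adjusted p = 0.677), with a 3.47-fold lower level in M2 than in M1 cells (log2 difference -1.79, SE 0.19, adjusted p = 0.0117). The small M1 minus M0 value turned to -0.22 after quantile normalization and to -0.37 in the authors' log2 table. M2 minus M0 was -1.67 (SE 0.19, adjusted p = 0.0776), a decrease present in KO (-1.43) and WT cells (-1.91). Without the WT M0 array the M2 minus M1 difference stayed at -1.79 but its adjusted p was 0.0556, M2 minus M0 was -1.51 (adjusted p = 0.639) and M1 minus M0 was 0.28 (adjusted p = 0.674).

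Clec4n stood at 0.93 in KO and 0.28 in WT M2 cells, at 2.24 in KO and 3.11 in WT M1 cells, and at 3.33 in KO and 3.1 in WT M0 cells. The M2 arrays were the lowest, and the M1 and M0 ranges overlapped. M2 minus M1 was -2.07 (SE 0.43, limma adjusted p = 0.0404), or 4.21-fold lower, the weakest of the 7 calls. With the slide as a block that difference was -1.59 and its adjusted p 0.116, and without the WT M0 array, or without the KO M0 array, the adjusted p was 0.113. M2 minus M0 was -2.61 (SE 0.43, adjusted p = 0.112) and M1 minus M0 was -0.54 (SE 0.43, adjusted p = 0.414), the last with -1.09 in KO and 0.01 in WT cells. The fit without the WT M0 array gave -2.78 for M2 minus M0 (adjusted p = 0.669) and -0.71 for M1 minus M0 (adjusted p = 0.60).

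Over all 3 states, the KO minus WT test passed for 0 of the 7 receptors and for 0 genes of the array (0% of those tested) by limma. The lowest adjusted p over all genes was 0.304, while 2156 genes had an unadjusted p under 0.05, and with a variance trend on intensity 32 genes and 0 of the 7 receptors passed. On the scale used here, the level of Mgl2 was lower in KO than in WT cells in all 3 states, with a log2 difference of -1.89 in M2, -1.74 in M1 and -0.40 in M0, and its fitted KO minus WT difference was -1.34 (SE 0.36, adjusted p = 0.401). In M2 cells, where both arrays shared a slide, its signal was 3.72-fold lower in KO than in WT cells. With normexp background correction the M2 value was -1.79, but the M1 value was -0.63 and the fitted difference -0.48 (adjusted p = 0.765). The difference in M0 cells did not keep its direction: on that scale it was 0.99, or 0.63 relative to the median of all genes. Clec10a was lower in KO cells too, with -1.92 in M0 cells (3.79-fold), -0.53 in M2 cells and -0.18 in M1 cells, and its fitted difference was -0.88 (SE 0.40, adjusted p = 0.483). The fitted difference without the WT M0 array was -0.36 for Clec10a and -1.81 for Mgl2, each with an adjusted p of 0.964.

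Within a state, where 1 array stood against 1 and no test was possible, a 2-fold difference was the rule for naming a receptor. In M2 cells Mgl2 alone was at least 2-fold lower in KO (1 of 7, against 3.89% of genes well above background on both arrays), and 0 of 7 were at least 2-fold higher (against 2.36%). In M1 cells Mgl2 again was lower (1 of 7, against 1.04%) and 0 were higher (against 9.21%), though with normexp correction the Mgl2 difference in M1 was under 2-fold. In M0 cells Clec10a was lower (1 of 7, against 3.63%) and 0 were higher (against 5.74%). On the scale used here, Clec4e was higher in KO cells in each state, by 0.68 in M2, 0.32 in M1 and 0.54 in M0. Its fitted KO minus WT difference was 0.51 (SE 0.14, limma adjusted p = 0.404). The Clec4e value in M1 was 0.14 after quantile normalization, 0.09 in the authors' log2 table and 0.00 with median centring. With normexp correction its M0 value was 0.26, or -0.1 relative to the median of all genes, so that direction was not kept. Clec4d was higher by 0.62, 0.28 and 0.14 in M2, M1 and M0 cells, though with median centring the M1 value was -0.04 and with normexp correction the M0 value was -0.30. For Clec7a the fitted KO minus WT difference was 0.27, for Mrc1 0.18 and for Clec4n 0.00, with adjusted p of 0.537, 0.766 and 0.998.

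**Figure D3:**
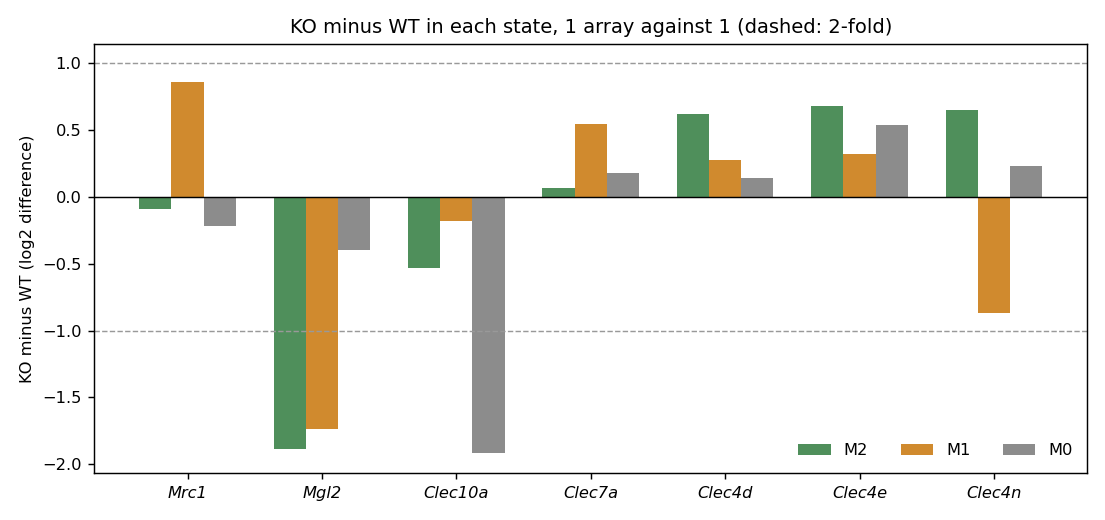
KO minus WT log2 difference (vertical axis) of each receptor in M2, M1 and M0 cells, 1 array against 1, with no error bars; dashed lines mark 2-fold. Mgl2 in M2 (-1.89) and M1 (-1.74) and Clec10a in M0 (-1.92) lie beyond the lower line, and no receptor lies beyond the upper one.

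Genes of other cell types were read on the same arrays. S100a9, a neutrophil granule gene, was at 1.79, -1.79 and 3.35 on the KO M2, M1 and M0 arrays and at 4.38, 0.36 and 5.99 on the WT M2, M1 and M0 arrays. The signal of the 11 neutrophil markers on the array was summed, as log2 over the 75th percentile. The sums were 2.74, 2.16 and 3.91 in KO M2, M1 and M0 cells and 4.74, 2.01 and 6.36 in WT. Of the 11, 8 were well above background on the KO M0 array against 11 on the WT M0 array. Monocyte markers summed lower in KO than in WT cells in each state. Their sums were -0.75, 6.17 and 0.24 in KO M2, M1 and M0 cells and 0.96, 7.52 and 3.08 in WT. Their median KO minus WT difference was -1.73 in M2, -0.84 in M1 and -2.06 in M0 cells, and that of the neutrophil markers was -1.33, -0.04 and -2.16. Mgl2 and Clec10a are also known from dendritic cells. The dendritic cell markers summed to -0.1, 0.57 and -0.35 in KO M2, M1 and M0 cells and to 0.60, -0.21 and -0.45 in WT. Their median KO minus WT difference was -0.44 in M2, 0.76 in M1 and 0.31 in M0 cells. Of the 10, 5 to 7 were well above background on a KO array and 6 to 7 on a WT array. Flt3 lay between -3.99 and -3.34 in KO and between -4.87 and -3.51 in WT, and Cd209a was well above background on no array. Stromal markers summed lower on each KO array than on any WT array: 9 of the 10 were well above background on each KO array and 8 to 9 on a WT array, with a summed level of 2.24 to 2.74 in KO and 2.99 to 4.19 in WT. Their median KO minus WT difference was -1.09 in M2, -0.54 in M1 and -1.36 in M0 cells. Col1a1, a collagen gene of fibroblasts, differed by -1.81, -2.0 and -2.35 in M2, M1 and M0 cells, and the B cell receptor gene Cd79b by -1.63, -1.86 and -2.03. The part of other cells in the KO minus WT values of Mgl2 and Clec10a was not tested.

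Levels of the 7 receptors were set against each other over the 6 arrays, which share the 3 states and 2 slides, so the correlations describe these arrays only. Mrc1 and Clec10a had a Pearson r of 0.975, and Clec4e ran opposite to Mrc1 (r = -0.976) and to Clec7a (r = -0.974). Mgl2 and Clec4d were close to mirror images (r = -0.995), while Clec4d and Clec4n had an r of 0.919. Of 8839 genes well above background on all arrays and ranging over at least 1 log2 unit, those most like each receptor were taken. For Mrc1 they were Ephx1, Rpl27a and Arl4c, each with an r of 0.998. Mgl2 was closest to Fyn (0.994), Sdf2l1 (0.992) and Car5b (0.992). For Clec10a they were Pla2g15 (0.998), Ang3 (0.997) and a transcript the files list by accession alone (0.999). Among the genes closest to Clec7a were Tfec (0.997) and Egr2 (0.997), a transcription factor gene that stood at 6.15 and 6.62 on the KO and WT M2 arrays and at -0.63 and -2.35 on the KO and WT M1 arrays. Clec4d was closest to Lysmd3 (0.997), Sh3bp5 (0.995) and Treml4 (0.993). Clec4e was closest to Znfx1 (0.998), Kctd6 (0.998) and Med7 (0.997), and Clec4n to Sntb2 (0.992), Fbxl4 (0.988) and Plxnb2 (0.986).

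Of the 7 receptors, 6 sit in 3 groups of related genes whose neighbours did not all move with them, and Mrc1 lies apart on chromosome 2. In the chromosome 6 group that holds Clec4n, Clec4d and Clec4e in that order, Clec4b1 and Clec4a2 lie on the other side of Clec4n. Clec4b1 stood at 6.37 in KO and 6.62 in WT M2 cells, at 5.36 in KO and 5.42 in WT M1 cells, and at 6.03 in KO and 6.24 in WT M0 cells. It was higher in M2 than in M1 cells by 1.10 (limma adjusted p = 0.0186), as was Clec4a2 by 0.83 (adjusted p = 0.0414), the opposite direction to the 3 receptors beside them. Beside Mgl2 and Clec10a, the asialoglycoprotein receptor genes Asgr1 and Asgr2 had M2 minus M1 differences of 0.04 and 0.88, neither past the threshold (adjusted p = 0.926 and 0.349). Next to Clec7a, Clec1a was at least 4.8-fold lower in M1 than in M0 cells, with neither M1 array well above background (adjusted p = 0.00709). On the other flank Olr1, the oxidised-lipoprotein receptor gene, stood at -1.84 in KO and -1.92 in WT M2 cells and was not well above background on either M0 array.

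**Figure D4:**
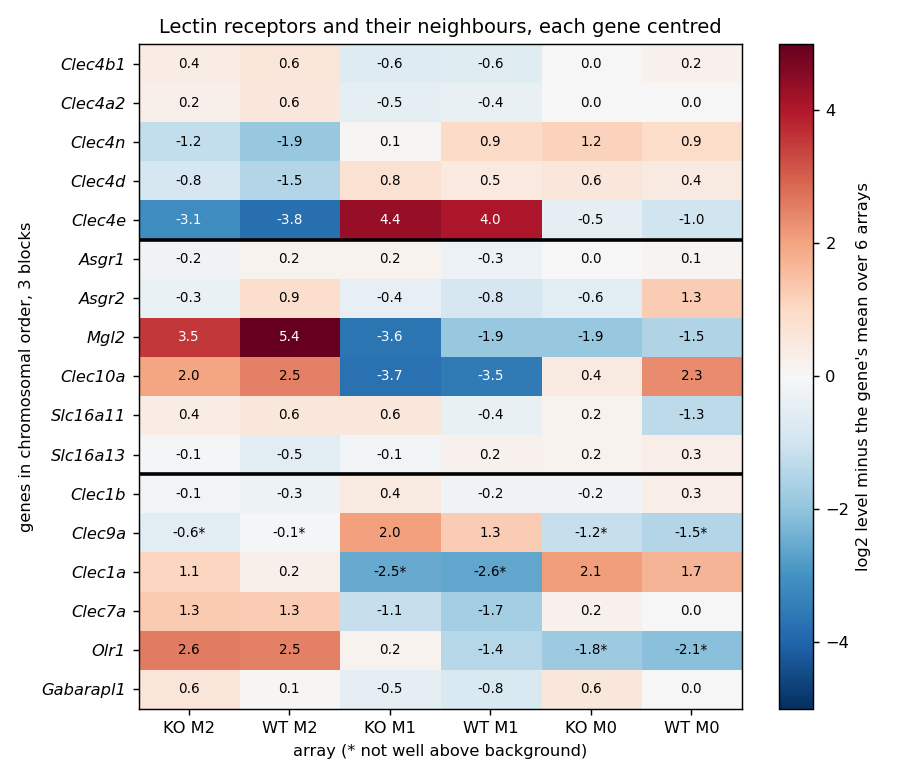
Log2 level of the receptors and their neighbours minus each gene's own mean over the 6 arrays (colour and printed value), by array (columns), with genes (rows) in chromosomal order in 3 blocks; an asterisk marks an array where the probe was not well above background. The M1 columns are highest for Clec4e, the M2 columns for Mgl2, and Clec4b1 and Clec4a2 run opposite to Clec4e.

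Genes that act below the receptors in the Syk and Card9 route were examined as a list. Of 17 such genes tested, 7 rose and 1 fell in M1 relative to M0 cells, where 11.6% of all genes rose and 14.0% fell, with a list median of 0.42 beside 0.03 for all genes. Fcer1g, the adaptor of the Dectin-2 family, rose by 0.96 in M1 cells (SE 0.22, limma adjusted p = 0.0482), with levels of 9.03 in KO and 8.70 in WT M1 cells and of 7.83 in KO and 7.99 in WT M0 cells. Syk had a difference of 0.13 (adjusted p = 0.673), and Card9 was not analysed here. Vav3, an exchange factor gene, fell by 1.26 (adjusted p = 0.0257). In M2 relative to M0 cells 0 of the 17 passed in either direction. With the WT M0 array left out, no gene of the array passed for M1 minus M0, which takes in the M1 minus M0 calls of the signalling, neighbouring and other lectin genes.

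Of 24 other C-type lectin-like receptor genes tested, out of 37 on the array, 7 rose and 4 fell in M1 relative to M0 cells, beside 11.6% and 14.0% of all genes. Cd69, an early activation receptor, rose by 7.11 (SE 0.36, limma adjusted p = 0.00681). Klra2, of the Ly49 family, rose by 4.98 (adjusted p = 0.00681). Klrk1, which encodes NKG2D, rose by 6.63 (adjusted p = 0.00823), with 1 of its 2 M0 arrays well above background. Clec9a, counted among the 7 that rose, was at least 3.8-fold higher in M1 cells. It was well above background on the 2 M1 arrays alone. It therefore met the filter only through the state where it was high, and its call is a description. The decreases were led by Clec1a, above, and by Colec12 (-2.90, adjusted p = 0.0142) and Thbd, which encodes thrombomodulin (-2.88, adjusted p = 0.00988). In M2 relative to M0 cells 0 of the 24 passed. The list median was 0.22 for M1 minus M0 and -0.25 for M2 minus M0.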

How the data were processed

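Total RNA of bone marrow-derived macrophages, 6 samples with 1 for each of 2 genotypes in 3 states, was hybridised to 1-colour Agilent arrays of design 014868, with groups taken from the labels. The authors deposited each array's scanner output, with spot intensity values from Agilent Feature Extraction 10.7.3.1, background-subtracted and detrended per the file headers and not scaled between arrays. They also deposited a table of log2 values, used as an alternative. Its columns correlated at r of at least 0.99886 with their own array, had medians between 5.39 and 5.41, and their scaling is not known here.

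Control spots and 79 to 164 outlier spots per array were left out, spots of a probe were averaged, and log2 processed signal minus the log2 of the 75th percentile of the array's non-control spots (532.4 to 627.1) was analysed. The brightest probe stood for a gene, tested if at least 2 of the 6 arrays had it well above background. Terms for state and genotype, without interaction, were fitted over all 6 arrays by limma 3.58.1 (R 4.3.3) with 2 residual df, a prior df of 1.88, Benjamini-Hochberg adjustment over 19038 genes and a threshold of 0.05. A genotype difference that is unequal between states counts as residual spread in this model. The script was tested on simulated data. Differences within a state have no replicate and no p, and the number of arrays limits all precision. A fold against a state with no array well above background is a lower bound: each dim array entered at the dimmest signal that any probe well above background had there, or at its own if that was higher.

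The 7 receptors are named throughout. Per receptor, the 3 genes with the highest r were named, and from the lists of signalling and other lectin genes Fcer1g, Syk, Card9 and up to 5 genes a direction past the threshold and 2-fold. Clec4b1, Clec4a2, Asgr1, Asgr2 and Olr1 (neighbours), Col1a1 and Cd79b were named after their values were seen. Some genes that the rule names are not reported here. The members and gene lists were chosen with earlier results of these data known. Names and gene order come from a RefSeq table of GRCm38.p6, whose coordinates were not used with those of the probes (mm9). Alternatives were normexp correction (offset 50), quantile normalization, median centring, the authors' table, the mean of a gene's probes, no filter or well above background on all 6 arrays, an intensity trend, the slide as a block, and leaving out each array.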

Additional observations from a re-analysis of the deposited data

Results flagged for a closer look

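For 2 receptors the KO minus WT difference pointed one way in one state and the other way in another, with 1 array of each genotype per state, so the difference between states was not tested. Mrc1 was higher in KO than in WT cells in M1 (0.86) and lower in M0 (-0.22) and M2 (-0.09), a change of 1.08 between M1 and M0 and of -0.94 between M2 and M1. Clec4n was lower in KO than in WT cells in M1 (-0.87) and higher in M0 (0.23) and M2 (0.65), a change of -1.11 between M1 and M0 and of 1.52 between M2 and M1. The residual SD of the fit was 0.415 for Mrc1, above the size of its M0 and M2 values, and 0.557 for Clec4n, above its M0 value. The M2 value of Mrc1 was -0.01 with median centring and in the authors' table. The M0 value of Clec4n was -0.12 with normexp correction. The KO and WT arrays shared a slide in M2 and were on different slides in M1 and M0.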

How the results depend on the processing

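The number of the 7 receptors called for M1 minus M0 was 4 and ranged from 0 to 4 when 1 array was left out, and the number of genes called, 4872, was 1283 with normexp correction and from 0 to 5451 with 1 array left out. For M2 minus M0, 0 receptors and 16 genes were called. The receptors numbered 2 with quantile normalization and in the authors' table, 3 with median centring and with the filter at all 6 arrays, and 5 with the intensity trend. The genes numbered 138, 153, 478, 273 and 1083 in the same settings, and 0 with normexp correction, no filter, the slide as a block or any array left out. For M2 minus M1, 7 receptors and 4835 genes were called. With 1 array left out there were 0 to 7 receptors and 0 to 4803 genes, and there were 1346 genes after normexp correction and 2234 when slide was a block. The intensity trend called 32 genes for KO minus WT. The cause of these shifts was not tested, except that leaving out an array, or taking the slide as a block, leaves 1 residual df. With the slide as a block, differences between states equalled those without the WT M2 array. KO minus WT then equalled the M2 pair, as in Mgl2 (-1.89). With 1 array left out, the lone array of a state is assumed to vary like the others.

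Directions reversed in 14 values, all of small differences that passed no test. KO minus WT of Mrc1 was -0.01 with normexp correction, -0.09 when slide was a block, -0.15 without either M1 array and up to 0.39 with another array left out. KO minus WT of Clec4n was -0.14 with normexp correction, -0.09 with median centring, -0.11 without either M0 array and from -0.32 to 0.44 over the arrays left out. M1 minus M0 of Clec4d was -0.22 with quantile normalization, -0.37 in the authors' table and from -0.03 to 0.28 over the arrays left out. M1 minus M0 of Clec4n ran from -1.2 to 0.12 over the arrays left out. Of 420 tested values of the receptors, 352 kept their direction and side of the threshold.

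Scalings moved the median over all genes: M1 minus M0 was 0.032 on the main scale, -0.35 with normexp correction and 0.263 with median centring, and KO minus WT in M0 was 0.104 on the main scale and 0.359 with normexp correction. Relative to that median, 108 of 112 receptor differences between states or genotypes kept their sign over 4 other scalings, and 73 of 84 within a state. The model paired arrays by state for KO minus WT and by genotype for the differences between states. Pairing by animal or culture was not possible because the labels give no replicate numbers. Signal over background limits Mgl2 most, whose M1 and M0 arrays were dim.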
